A study of Mus musculus with 8 samples.

Results

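The expression of 10 genes was followed that move iron into, within and out of myeloid cells or that keep their thiols reduced, namely Hmox1, Slc40a1, Fth1, Ftl1, Tfrc, Slc11a1, Gclm, Txnrd1, Prdx1 and Srxn1. They were listed by function, with earlier results of these data known. All 10 of 10 were found by symbol among the 32285 genes of each of 4 single-cell count matrices. Their transcripts were counted by library, by hashtag genotype and by cell type, with the main comparison set between macrophage-like and neutrophil-like cells of irradiated tumors.

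Iron enters a cell bound to transferrin through the transferrin receptor (Tfrc), is pumped out of phagosomes by the metal transporter NRAMP1 (Slc11a1), and is released from heme by heme oxygenase 1 (Hmox1). What is not used is stored inside ferritin, a shell of heavy (Fth1) and light (Ftl1) chains, or leaves through ferroportin (Slc40a1), the known iron exporter of mammalian cells. Free iron drives the formation of radicals, and the antioxidant genes stand beside it: the modifier subunit of glutamate-cysteine ligase (Gclm) makes glutathione synthesis efficient, thioredoxin reductase 1 (Txnrd1) keeps thioredoxin reduced, peroxiredoxin 1 (Prdx1) removes peroxides, and sulfiredoxin 1 (Srxn1) restores peroxiredoxins that were oxidized too far. Macrophages of spleen and liver are known for taking up aged red cells and returning their iron to the blood, and neutrophils for the oxidative burst with which they kill microbes.

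Cells with the surface phenotype CD45+CD11b+Ly6Chi, which the study calls monocytic myeloid-derived suppressor cells (mMDSC), had been sorted from subcutaneous MC38 tumors, a mouse colon carcinoma line, or from the blood of the same kind of tumor-bearing C57BL/6J mice. The mice were of both sexes and carried floxed Ythdf2 alleles (Ythdf2 fl/fl), either without Cre (WT) or with Cre at the lysozyme locus (Lyz Cre+;Ythdf2 fl/fl, Ythdf2-cKO), which is active in myeloid cells. Tumors were either sham-treated (control) or irradiated once with 20 Gy (IR), 3 days before the cells were taken. For each combination of genotype, tissue and treatment the cells of several mice had been combined, marked with the hashtag antibody B0301 (WT) or B0302 (Ythdf2-cKO), and loaded as 4 libraries, of which each held 1 tissue under 1 treatment. All 8 groups are thus single pools. No test between groups was therefore possible, and every interval given here is a 95% interval that covers counting error only. Differences between tissues or between treatments cannot be told apart from differences between libraries. For flow cytometry the paper digested tumors with collagenase and DNase, a step it does not give for blood. The part of this step in differences between tissues was not tested.

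The matrices held 51653956 to 87703837 gene UMIs (unique molecular identifiers, 1 per captured transcript molecule), and 27828 cells were kept, between 2151 and 4674 per group. Each tumor matrix also held droplets of the other tumor library, and the minimum of 20 hashtag UMIs removed them: 7140 of the 7142 barcodes dropped from tumor control and 4817 of the 4820 dropped from tumor IR carried 20 or more hashtag UMIs in the other tumor matrix, while 128 and 154 of the kept barcodes carried 20 or more in both. Pairs of libraries shared 8 to 32 kept barcodes. The hashtag labels were set against the alleles: Lyz2, whose locus carries the Cre, was at 5607 to 14082 CPM (a gene's UMIs as a share of all gene UMIs in the same cells, on the usual scale) over all cells labelled WT and at 83.7 to 138 CPM over cells labelled cKO, whereas the 3′ tags of Ythdf2 were higher in the cells labelled cKO (302.03 to 372 CPM against 32.8 to 55.9 CPM), against the direction of the label. Whether these tags lie in the deleted part of the gene was not examined, and the conflict with the label was not resolved. The groups are therefore called cells labelled WT and cells labelled cKO. In fibroblast-like cells Ythdf2 lay between 49.7 and 63.8 CPM in the 3 groups with at least 50 cells. The cause of the difference in Ythdf2 between the labels was not tested.

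The sort did not yield 1 cell type. Neutrophil-like cells, called from S100a8, S100a9, Csf3r and other markers, made up 67.0% to 72.0% of the kept cells of the 4 blood groups. Ly6c2 was 115 to 322 CPM in neutrophil-like cells (6 groups) and 1319 to 3477 CPM in monocyte-like cells (7 groups). Macrophage-like cells, called from C1qa, C1qb, C1qc and other markers, were found in the tumors, with 946 and 1102 cells labelled WT and cKO in control tumors and 623 and 961 in irradiated tumors, apart from 6 cells in the blood libraries. Control tumors held 17 and 29 neutrophil-like cells, too few to be compared, so macrophages were compared with neutrophils in irradiated tumors, where the neutrophil-like cells numbered 327 and 244.

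In the annotation, 4 of the 10 genes carry iron-responsive elements, the hairpins through which iron regulatory proteins hold back translation (in a 5′ UTR) or slow the decay of a transcript (in a 3′ UTR) when iron is scarce. They are shown because these genes are read both as RNA and as RNA that iron can hold back or protect, and only the RNA was measured here. The transcripts of GENCODE vM21 on mm10 were searched for a bulged C, a stem of paired bases above it and a 6-base loop that begins with CAGTG. Pairing below the C was not required. The capitals mark that loop, and every sequence is given 5′ to 3′ on the gene's own strand.
Fth1 5′ UTR, chr19:9982733-9982759, plus strand: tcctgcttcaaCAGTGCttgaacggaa
Ftl1 5′ UTR, chr7:45459780-45459806, minus strand: tcttgcttcaaCAGTGTttgaacggaa
Slc40a1 5′ UTR, chr1:45925466-45925492, minus strand: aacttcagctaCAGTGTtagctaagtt
Tfrc 3′ UTR, chr16:32631220-32631246, plus strand: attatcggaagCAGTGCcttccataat
Tfrc 3′ UTR, chr16:32631599-32631625, plus strand: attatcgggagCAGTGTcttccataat
Tfrc 3′ UTR, chr16:32631664-32631690, plus strand: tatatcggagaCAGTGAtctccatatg
Tfrc 3′ UTR, chr16:32631711-32631737, plus strand: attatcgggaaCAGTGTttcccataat
The ferritin matches lie in 5′ UTRs, as does that of ferroportin, and the 4 matches of the transferrin receptor lie in its 3′ UTR. Elements that depart from the searched pattern would be missed. The other 6 genes held no match. Over the annotation, a 5′ UTR match was found in 31 of 20916 genes (0.148%) and a 3′ UTR match in 129 of 21042 genes (0.613%).

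The antioxidant response element, the site through which the transcription factor NRF2 (Nfe2l2) induces genes of this kind, was looked for as TGACNNNGC on either strand in RefSeq promoter windows on GRCm38.p6, which span 250 bases before to 50 bases after a gene's start. Windows were at hand for 8 of the 10 genes, Hmox1 and Slc40a1 being left out, and 4 of these 8 held a match. Counted by window, 4 of the 12 windows of these 8 genes held one, against 4071 of all 32851 windows (12.4%). Each match lay on the minus strand and is printed on the plus strand, with the motif in capitals. The 4 genes are the antioxidant members, and they are shown for that reason.
Srxn1, chr2:152105543-152105569: cagtgggcaGCTAGGTCAgagtgagac
Gclm, chr3:122245414-122245440: ctcccgggcGCACCGTCAactctcacg
Prdx1, chr4:116685457-116685483: agggaaagcGCTGAGTCAtcccccgta
Txnrd1, chr10:82859105-82859131: tggatttttGCTTTGTCAttctgacac
Gclm, Prdx1 and Txnrd1 carried the match before the start of their window's transcript and Srxn1 carried it 28 bases after. Txnrd1 has 3 windows, and its match stood before a start inside the gene, while the window at the gene's outermost start held none. The Prdx1 match overlaps TGAGTCA, a site that AP-1 factors also read and that, as TGACTCA or TGAGTCA, was present in 5.2% of all windows. The windows of Prdx1 and Srxn1 each held 2 such sites, in Srxn1 apart from its match, and the other member windows held none. A match describes these letters and is no evidence of binding.

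Levels are given in CPM throughout. Ratios are log2 ratios of CPM with 1 depth-scaled UMI added to both sides. A gene was counted in a comparison where both sides together held at least 100 UMIs, and called where the log2 ratio was at least 1 (2 times) in either direction. UMIs come from the 3′ end of a transcript, so levels of 1 gene are compared between cells, and levels of different genes are not compared. In sums over many cells, fewer cells of a type and less RNA per cell cannot be told apart.

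Over all cells of a group, ferroportin was lower in tumors than in blood, and Srxn1, Txnrd1 and Prdx1 were higher (plot of levels in the 8 groups). Slc40a1 (chr1:45908068-45926523, minus strand) stood at 143 and 146 CPM in control blood (labelled WT and cKO) and at 171 and 197 CPM in IR blood, against 0.544 and 0.378 CPM in control tumors and 2.34 and 2.28 CPM in irradiated tumors. Every blood group was thus far above every tumor group. Srxn1 (chr2:152105516-152111376) ran the other way, with 1.98 to 3.07 CPM in the 4 blood groups and 51.9 to 69.4 CPM in the 4 tumor groups. Txnrd1 (chr10:82833951-82897712) held 34.3 to 38.7 CPM in blood and 182 to 239 CPM in tumors, and Prdx1 (chr4:116685544-116700822) 326 to 453 CPM in blood and 695 to 997 CPM in tumors. The ranges of the 2 tissues did not overlap for any of these 4 genes. The share of all genes with no such overlap was not counted, here or for the genes that follow. Between tumor and blood, 32.3% to 43.9% of all genes counted were called.

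**Figure D1:**
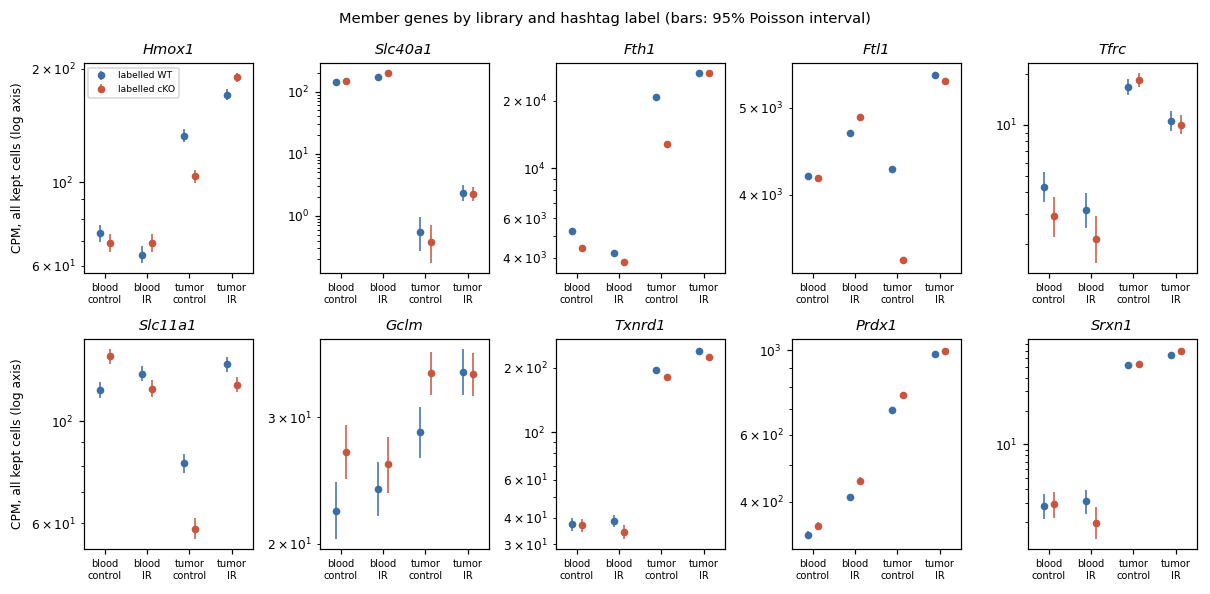
Level of each of the 10 genes over all kept cells of the 8 groups, in CPM on a log axis, with 95% Poisson intervals that cover counting error only. Points are cells labelled WT or cKO of 1 pool each: Slc40a1 is 143 to 197 CPM in blood and at most 2.34 CPM in tumors, while Srxn1, Txnrd1, Prdx1, Fth1 and Tfrc are higher in all 4 tumor groups than in all 4 blood groups.

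The ferritin heavy chain Fth1 (chr19:9980598-9985098) reached 12796 and 20679.6 CPM in control tumors (labelled cKO and WT) and 26629 and 26629.8 CPM in irradiated ones, against 3802.8 to 5232 CPM in blood. Ftl1 (chr7:45457944-45459884, minus strand) overlapped between tissues, at 3377 to 5444 CPM in tumors and 4172 to 4890 CPM in blood. Its counts are uncertain, since a near copy, Ftl1-ps1, was counted separately (31.1 to 55.7 CPM) and could share reads with it, and Gm10252 and Gm22133 overlap it. Tfrc (chr16:32608920-32632794) was low in both tissues, 10.01 to 18.5 CPM in tumors and 2.14 to 4.33 CPM in blood. Hmox1 (chr8:75093621-75100589) lay at 104 to 190 CPM in tumors and 64.2 to 73.1 CPM in blood, and Gclm (chr3:122245557-122270732) at 28.6 to 34.7 CPM and 22.3 to 26.9 CPM, in each case with no overlap. Slc11a1 (chr1:74375195-74386062) overlapped, at 58.4 to 133 CPM in tumors and 117 to 138 CPM in blood. Gclm and Txnrd1 also overlap other annotated genes, Gclm Gm17494 and Gm6061, and Txnrd1 Eid3, Gm38560 and Gm47073.

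By the call, 6 of the 10 genes differed between tumor and blood in control cells labelled WT (35.5% of all genes counted were called), 7 of 10 in control cells labelled cKO (43.9%), 7 of 10 in IR cells labelled WT (32.6%) and 7 of 10 in IR cells labelled cKO (32.3%). Fth1, Tfrc, Txnrd1, Prdx1 and Srxn1 were higher in tumors in all 4 of these comparisons and Slc40a1 was lower in all 4. Hmox1 was called higher in both IR comparisons, by 1.41 and 1.46 on the log2 scale, and at 0.86 and 0.59 it was not called in controls. Slc11a1 was called lower in control cells labelled cKO alone (−1.24). Of the 31 further iron genes, 3, 5, 3 and 3 were called higher and 5, 8, 6 and 6 lower in tumors in these 4 comparisons (25 to 27 counted), and of the 31 further antioxidant genes 4, 6, 4 and 3 higher and 7, 7, 8 and 8 lower (29 to 31 counted). Of all genes counted, 20.0%, 27.4%, 16.03% and 15.9% were called higher and 15.6%, 16.5%, 16.5% and 16.4% lower. These sums mix cell types whose shares differ between the tissues, so each type was then read by itself.

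Ferroportin separated the cell types most sharply. In blood neutrophil-like cells Slc40a1 stood at 351 (labelled WT) and 352 CPM (labelled cKO) in controls and at 428 and 523 CPM after IR. Nonclassical monocyte-like cells of the blood held 22.7 to 37.7 CPM over 4 groups, monocyte-like cells at most 6.20 CPM over 7 groups, and macrophage-like cells at most 0.913 CPM over 4 groups (2 to 8 UMIs each). The order from neutrophils to nonclassical monocytes to the others held without overlap. The nonclassical monocytes also held the neutrophil marker S100a8 at 2476 to 5351 CPM, against 409 to 752 CPM in blood monocytes, and its part in their Slc40a1 level was not tested. Ferroportin was the leading gene of 1 of the neutrophil-like clusters of the blood (cluster 1, 396 to 665 CPM over 4 groups), although the 10 genes had been kept out of the clustering.

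Cell by cell the picture was the same. Thinned to 1000 UMIs per cell, 29.1% (exact binomial interval 27.6% to 30.8%) of control blood neutrophils labelled WT and 30.8% of those labelled cKO held a Slc40a1 UMI, and 33.2% and 40.4% after IR, with 4 to 17 shallower cells left out per group. No macrophage-like cell of irradiated tumors did, of 617 labelled WT and 955 labelled cKO, which, at 3 cells over the total, allows a share of up to 0.486% and 0.314% of cells with a UMI. Without thinning the neutrophil shares were 53.2%, 57.6%, 61.8% and 68.0%, at median depths of 2476 to 2625.5 UMIs per cell. The unthinned shares of the macrophages of irradiated tumors were 0.161% and 0.208%, at the greater depths of 7642 and 7696 UMIs.

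Prdx1 had the opposite arrangement. It stood at 769, 778, 1406 and 1240.1 CPM in the macrophage-like groups (control WT, control cKO, IR WT, IR cKO), at 624 to 1066 CPM in the 7 monocyte-like groups and at 9.14 to 11.4 CPM in the 4 groups of blood neutrophils. Nonclassical monocytes held 388 to 482 CPM, fibroblast-like cells 876 to 999 CPM and NK cell-like cells 197 to 309 CPM. Of these classes the neutrophils were lowest, and macrophages, monocytes and fibroblasts overlapped. Among the 34 sums of 1 class in 1 group, Slc40a1 and Prdx1 were the most opposed pair of the 10 genes, with r = −0.878 on log2 CPM with 10 added (a description, since these sums share libraries and classes).

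**Figure D2:**
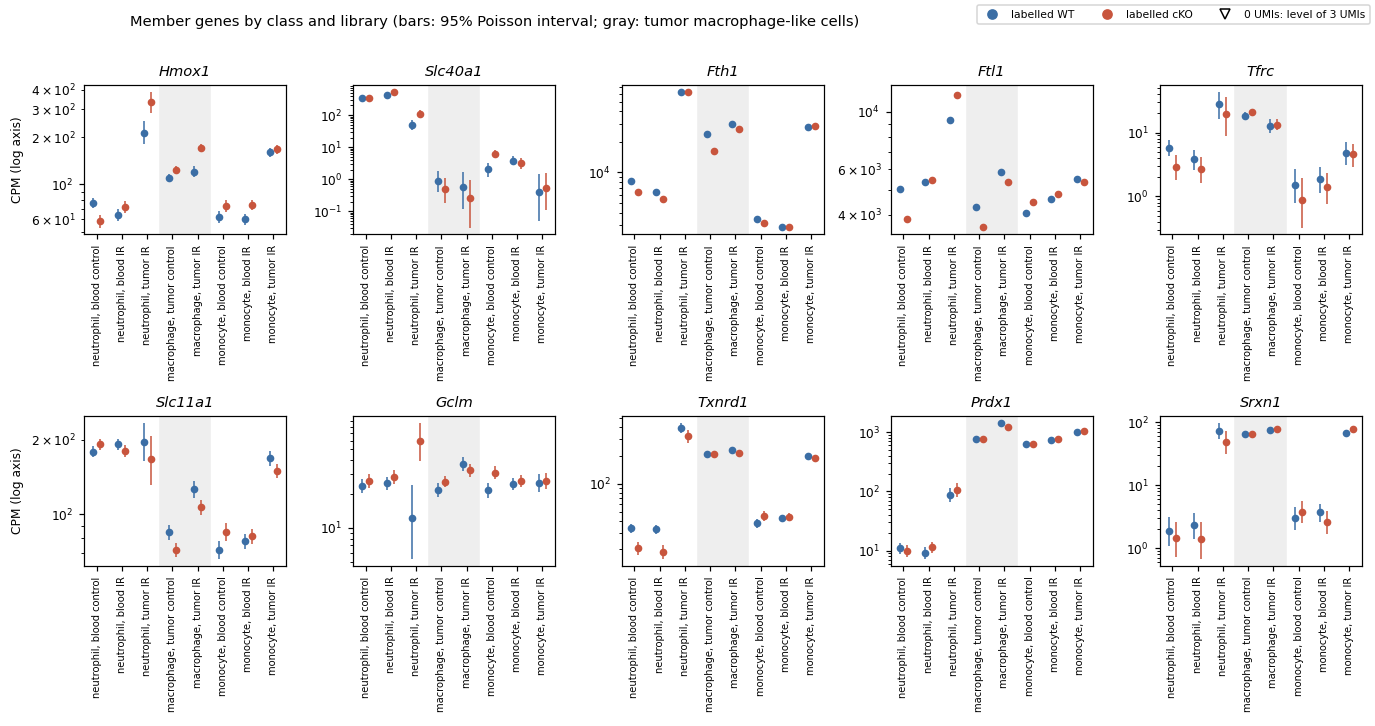
Levels of the 10 genes in neutrophil-like, macrophage-like (gray band) and monocyte-like cells by tissue and treatment, in CPM on log axes, with 95% Poisson intervals for counting error. Slc40a1 is highest in blood neutrophils (351 to 523 CPM), where Prdx1 is lowest (9.14 to 11.4 CPM), and Fth1 is highest in tumor neutrophils (62094 and 61936.5 CPM).

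Among neutrophils, monocytes and macrophages, Srxn1 and Txnrd1 were higher in every tumor group than in every blood group. Srxn1 was 1.42 to 2.31 CPM in blood neutrophils and 2.63 to 3.84 CPM in blood monocytes. In tumors it was 49.0 and 73.7 CPM in neutrophils, 32.8 (control labelled WT), 66.9 and 77.2 CPM (IR) in monocytes and 64.0 to 77.5 CPM in macrophages. Txnrd1 was 18.7 to 33.3 CPM in blood neutrophils and 37.7 to 45.3 CPM in blood monocytes, and 155 to 396 CPM in the same 3 tumor classes. This did not extend to the NK cell-like cells, in which Txnrd1 was 71.4 to 123 CPM in 3 blood groups and 73.3 to 172 CPM in 4 tumor groups, with overlap. The monocyte-like cells of the 2 tissues came from different clusters. Those of tumors lay mostly in cluster 5 (led by Ifit1bl1, Ifit2 and Rsad2) and those of blood mostly in cluster 2. The macrophage markers summed to 3331 and 4370 CPM in monocytes of irradiated tumors and to 844 to 1753 CPM in blood monocytes. The part of this in the difference between tissues was not tested.

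In irradiated tumors, neutrophil-like cells held a larger share of ferritin heavy chain transcript than macrophage-like cells, and macrophages held more peroxiredoxin. Fth1 reached 62094 CPM in neutrophils labelled WT and 61936.5 CPM in those labelled cKO, against 29889 and 26597 CPM in macrophages. The 2 classes did not overlap. The log2 ratio of macrophages to neutrophils was −1.05 (−1.07 to −1.04) labelled WT and −1.22 (−1.24 to −1.20) labelled cKO, both called. Ftl1 was 9315 and 11660.5 CPM in neutrophils and 5852 and 5354 CPM in macrophages, a log2 ratio of −0.67 (not called) and −1.12 (called).

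Hmox1 stood at 213 and 333 CPM in the neutrophils and at 120.2 and 171 CPM in the macrophages (−0.83, −1.10 to −0.55, and −0.96, −1.20 to −0.71, neither called). The direction of Hmox1 depended on which cells were taken as macrophages. Its ratio ranged from −1.65 to 0.53 and from −1.67 to 0.17 over 17 alternatives, and cells gated one by one on marker UMIs in place of clusters gave the upper ends, 0.53 and 0.17. Txnrd1 was 396 and 319.9 CPM in neutrophils against 228 and 215 CPM in macrophages, and Slc11a1 196 and 166 CPM against 126 and 107 CPM. Both were lower in macrophages under each label and neither was called (−0.79 and −0.57 for Txnrd1, −0.64 and −0.64 for Slc11a1).

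Prdx1 was 1406 and 1240.1 CPM in macrophages against 87.5 and 107 CPM in neutrophils, log2 ratios of 4.001 (3.63 to 4.41) and 3.54 (3.14 to 3.97) and called under both labels. Gclm gave 36.9 and 32.5 CPM in macrophages against 12.3 and 59.7 CPM in neutrophils, from 8 and 28 neutrophil UMIs. It was called higher in macrophages labelled WT (1.56, 0.58 to 2.82) and lay lower in those labelled cKO (−0.87, −1.44 to −0.26, not called). The first call was lost with TMM scaling (0.75), and the ratio labelled cKO ranged from −1.58 to 0.28 over the alternatives. Srxn1 was 75.2 against 73.7 CPM labelled WT (0.03, −0.41 to 0.49) and 77.5 against 49.0 CPM labelled cKO (0.66, 0.06 to 1.33), and its sign varied over the alternatives under both labels. Tfrc gave 66 against 18 UMIs labelled WT, too few to be counted, and 13.2 against 19.2 CPM labelled cKO (−0.53, −1.52 to 0.63).

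Ferroportin transcript was present in the tumor neutrophils and nearly missing from the macrophages beside them. The neutrophils held 32 and 50 UMIs of Slc40a1, 49.1 and 107 CPM, and the macrophages 3 and 2 UMIs, 0.580 and 0.254 CPM. Neither comparison reached 100 UMIs, so neither was counted. The log2 ratio was −5.74 (−8.76 to −4.73) labelled WT and −7.76 (−11.80 to −6.78) labelled cKO.

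In all, 3 of 8 counted genes were called labelled WT (66.8% of all genes counted were called) and 3 of 9 labelled cKO (66.2%), shares below that of all genes. All genes together leaned to the macrophages, with a median log2 ratio of 1.33 under both labels, while the medians of the 10 genes that were counted were −0.65 and −0.64. TMM scaling, which removes part of such a lean, moved all ratios by −0.82 and −0.71, lowered the share of higher calls among all calls from 86.5% to 67.0% and from 87.7% to 71.2%, and left 6 and 8 of the members called. With it the ratios of Srxn1 turned below 0 (−0.80 and −0.05), and Hmox1, Ftl1, Slc11a1 and Txnrd1 were called lower in macrophages under both labels. Fth1 was lower in macrophages in every alternative but fell short of the call under both labels with at most 10% mitochondrial UMIs (−0.73 and −0.87), with the gate (−0.85 and −0.88), at cluster resolution 0.4 (−0.91 and −0.96) and with a wider choice of phagocyte clusters (−0.89 and −0.94), and labelled WT also with the hashtag majority (−0.97) and at resolution 1.2 (−0.98). The call of Ftl1 labelled cKO was lost with the UMI threshold alone (−0.67), at most 10% mitochondrial UMIs (−0.92), the gate (−0.66), the wider clusters (−0.98) and, narrowly, the hashtag majority.

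Tumor neutrophil-like cells also held UMIs of macrophage genes: C1qa stood at 72.2 and 124 CPM in them against 888 and 1113 CPM in macrophages, and all 10 macrophage markers were detected in both neutrophil groups, with a summed level of 700.01 and 712 CPM against 4834 and 6336 CPM. Free RNA of the library was therefore measured in the barcodes ranked too low to be cells, and each gene was set against C1qa, whose ratio a common source would keep (plot of UMIs per C1qa UMI). Free RNA of the tumor IR matrix held 1.46 Prdx1 UMIs per C1qa UMI, and the tumor neutrophils 1.21 and 0.862, at or below it. How much of their Prdx1 came from free RNA was not tested. Thinned to 1000 UMIs 6.51% and 7.39% of them held a Prdx1 UMI while 3.91% and 5.65% held a C1qa UMI. For the other 9 genes the ratio in neutrophils was above that of free RNA: 2.96 and 2.69 against 0.234 for Hmox1, 861 and 501 against 38.7 for Fth1, 5.49 and 2.59 against 0.255 for Txnrd1, and 0.681 and 0.862 against 0.000975 for Slc40a1. The free RNA value of Slc40a1 rests on 1 UMI. The tumor IR matrix also held droplets of the other tumor library, and their part in this free RNA was not tested. In the control tumor matrix free RNA held 1221 UMIs of Prdx1 and 1644 of C1qa. Without the neutrophil-like cells that held any C1q UMI, Prdx1 stood at 4.11 and 3.52 and Fth1 at −1.02 and −1.26 on the log2 scale (an alternative added after the data had been seen). No erythroid UMI (Hba-a1, Hba-a2, Hbb-bs, Hbb-bt, Alas2) was found in the tumor neutrophils.

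**Figure D3:**
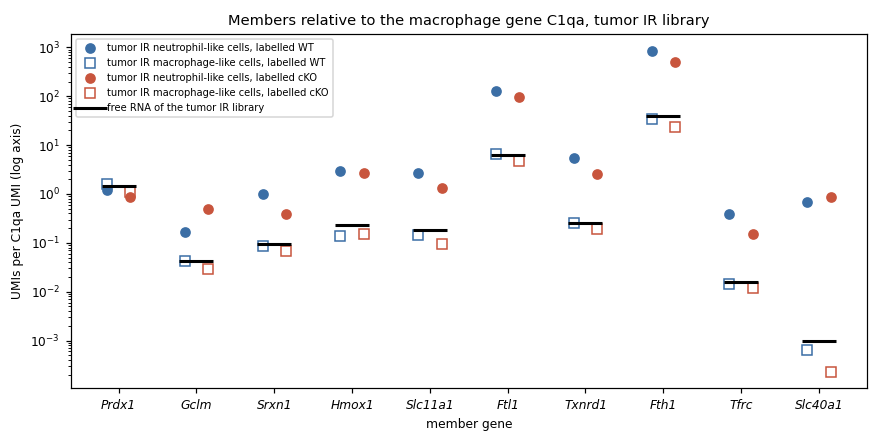
UMIs of each gene per UMI of C1qa in neutrophil-like and macrophage-like cells of the irradiated tumor and in the free RNA of the same matrix, on a log axis. Only Prdx1 lies at or below free RNA in the neutrophils (1.21 and 0.862 against 1.46), and the other 9 genes lie above it.

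Further genes of the 2 pathways were read from lists of 31 genes each, chosen with earlier results of these data known. Of the iron list, 8 genes were called higher and 3 lower in macrophages labelled WT of 16 counted, and 12 and 3 of 20 labelled cKO, with a list median of 0.97 and 1.56 beside 1.33 for all genes. Of all genes counted, 57.8% and 58.0% were called higher and 9.02% and 8.16% lower, and nothing particular to the list is read from its counts. Slc39a14, a zinc and iron importer, was 44.5 and 38.0 CPM in macrophages against 3.07 and 2.13 CPM in neutrophils, and Lrp1, a receptor that takes up heme bound to hemopexin, was 380.4 and 404 CPM against 33.8 and 23.5 CPM. The biliverdin reductase Blvra, which acts after heme oxygenase, was 63.0 and 71.8 CPM against 6.14 and 12.8 CPM. Lcn2, which withholds iron-loaded siderophores from microbes, was 474 and 326 CPM in neutrophils against 2.13 and 0.636 CPM, and Hp (haptoglobin) and Fbxl5, an iron-sensing ligase that degrades IRP2, were lower in macrophages as well. Slc11a2 and Hfe were at 0 UMIs in neutrophils labelled cKO and at least 2.68 and 2.17 times higher in the macrophages, against a floor of 3 UMIs.

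Of the antioxidant list, 11 genes were called higher and 4 lower of 24 labelled WT, and 11 and 3 of 27 labelled cKO (medians 0.72 and 0.43), beside the same 57.8% and 58.0% higher and 9.02% and 8.16% lower of all genes. Slc7a11, the cystine importer of glutathione synthesis, was 1789.95 and 1734 CPM in tumor neutrophils against 282 and 257 CPM in macrophages. Gsr, which reduces glutathione (438 and 561 against 97.8 and 93.2 CPM), and the microsomal transferase Mgst1 were lower in macrophages too. Among the genes higher in macrophages were the peroxiredoxins Prdx2 (290.1 and 263 CPM against 19.96 and 8.53 CPM) and Prdx4 (55.5 and 46.1 CPM against 1.54 and 4.27 CPM), the pentose phosphate enzyme Tkt (299.97 and 286 against 18.4 and 25.6 CPM), and Txn2.

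Neutrophil-like cells of irradiated tumors were then set against those of IR blood, a comparison added after the data had been seen. Fth1 was 62094 and 61936.5 CPM in the tumor and 6391 and 5470.2 CPM in blood, a log2 ratio of 3.28 (3.26 to 3.30) and 3.501. Txnrd1 was 32.4 and 18.7 CPM in blood and 396 and 319.9 CPM in the tumor (3.60 and 4.07), and Hmox1 63.6 and 71.4 CPM and then 213 and 333 CPM (1.74 and 2.22). Slc40a1 was 428 and 523 CPM in blood and 49.1 and 107 CPM in the tumor (−3.12 and −2.29). For these 4 genes both tumor groups lay outside both blood groups. How many of all genes did so was not counted.

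Ftl1 differed less (0.79, not called, and 1.10, called), and Slc11a1 did not reach the call in either direction (196 and 166 CPM against 191 and 179.7 CPM, 0.04 and −0.11). Prdx1 was called higher (3.23 and 3.20), and its UMIs per C1qa UMI in the tumor cells did not exceed those of free RNA in the same matrix. Gclm went opposite ways, −1.01 (8 tumor UMIs) labelled WT and 1.06 (28 tumor UMIs) labelled cKO, and neither call held in every alternative. Srxn1 (48 and 23 UMIs in the tumor against 20 and 10 in blood) and Tfrc (18 and 9 against 33 and 19) were too few to be counted, with 73.7 and 49.0 CPM against 2.31 and 1.42 CPM for Srxn1. In all, 6 of 8 counted genes were called labelled WT (57.3% of all genes were called) and 7 of 8 labelled cKO (54.8%), and the members had medians of 1.27 and 1.66 where all genes had −0.89 and −0.76. The 2 kinds of neutrophil fell into different clusters, the tumor cells mostly into cluster 13 (leading genes Ccl3, G0s2, Schip1 and Ccl4) and the blood cells mostly into clusters 0, 1, 6 and 12.

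Of the other iron genes, 9 of 16 were called lower in tumor neutrophils under each label, among them Ireb2 (IRP2, 3.07 and 8.53 CPM against 38.1 and 39.8 CPM), Hp, Lcn2 and Ltf (lactoferrin), and Blvrb alone was called higher, labelled cKO (1.81). The list median was −1.12 and −1.18, and 46.3% and 42.8% of all genes counted were called lower and 10.998% and 12.02% higher. Of the antioxidant list 5 were called higher and 11 lower of 21 labelled WT, and 5 and 9 of 20 labelled cKO. Sod2, the mitochondrial superoxide dismutase, was 803 and 544 CPM in the tumor and 25.6 and 24.3 CPM in blood (4.96 and 4.47), and Esd and the autophagy receptor Sqstm1 were higher as well. The lower ones included the pentose phosphate enzymes Tkt, Pgd and G6pdx and the glutathione peroxidase Gpx1, and glutathione synthetase (Gss) was at 0 UMIs in the tumor cells labelled WT, at least 3.97 times lower.

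In macrophage-like cells, none of 9 counted genes was called between irradiated and control tumors under either label (3.0% of all genes were called labelled WT and 8.04% labelled cKO). Several nevertheless differed by more than counting error (plot of macrophage ratios). Prdx1 was 1406 against 769 CPM labelled WT and 1240.1 against 778 CPM labelled cKO, 0.87 (0.82 to 0.92) and 0.67 (0.63 to 0.71) on the log2 scale. Fth1 was 29889 against 23832 CPM and 26597 against 16118 CPM (0.33 and 0.72), Ftl1 5852 against 4302 and 5354 against 3604 CPM (0.44 and 0.57), and Slc11a1 126 against 84.6 and 107 against 71.7 CPM (0.58 and 0.57). All 4 were higher after IR under both labels, as was Gclm (0.75 and 0.33). Tfrc was lower, 12.8 against 18.3 CPM and 13.2 against 20.6 CPM (−0.51, −0.95 to −0.10, and −0.64, −0.99 to −0.31). Hmox1 stood at 120.2 against 110.01 and 171 against 124 CPM (0.13, −0.02 to 0.28, and 0.46, 0.36 to 0.57), and ranged from −0.22 to 0.64 and from −0.30 to 0.79 over 15 alternatives.

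The make-up of the class differed along with these ratios. C1qa was 888 against 1519.8 CPM (IR against control, labelled WT) and 1113 against 2324 CPM (labelled cKO), and the 10 macrophage markers summed to 4834 against 8597 and 6336 against 11523 CPM. The neutrophil markers summed to 376 against 70.5 and 196 against 47.0 CPM, and Ly6c2 was 1212 against 416 and 974 against 119 CPM. The erythroid markers summed to 106 CPM in control macrophages labelled cKO and at most 0.342 CPM in the other 3 groups. The part of these genes in the ratios of the members was not tested.

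**Figure D4:**
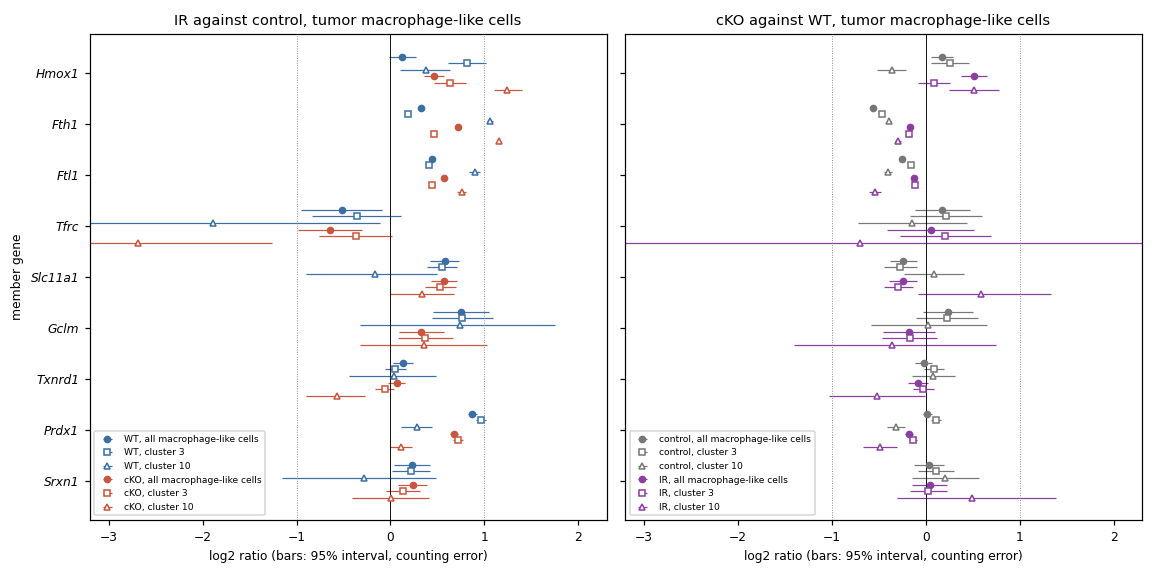
Log2 ratios of 9 members in all macrophage-like cells and in their clusters 3 and 10, IR against control (left) and cells labelled cKO against WT (right), with 95% intervals for counting error, dotted lines at −1 and 1, and ratios of under 100 UMIs included. For the summed class every ratio lies between the dotted lines, Prdx1 being highest after IR labelled WT (0.87), while in cluster 10 after IR Fth1 (1.06 and 1.16) and Hmox1 labelled cKO (1.25) lie beyond them.

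The macrophage-like cells were made of 3 clusters whose sizes differed between groups. Cluster 3 (2711 cells, with Cdh1, H2-Eb1, H2-Ab1 and Cxcl9 among its leading genes) held 748 and 620 cells in control tumors and 549 and 791 in irradiated ones. Cluster 10 (754 cells, with Ccl8, Folr2, Mrc1 and Gas6 among its leading genes) held 168 and 355 and then 66 and 165. Cluster 17 (173 cells, with the cycling genes Pclaf, Mki67 and Top2a) held 30 and 127 and then 8 and 5. Summed over all groups, 3 members were counted as more than 2 times apart between these clusters (plot of levels by cluster). Slc40a1 is not among these 3, and its UMIs were too few to be counted. Labelled WT it gave 8 (control) and 3 (IR) UMIs in cluster 10 and 0 in cluster 3. Labelled cKO it gave 6 and 1 UMIs in cluster 10 and 0 and 1 in cluster 3. The share of all genes so far apart was not counted. These sums also weigh the groups unevenly, since 127 of the 173 cells of cluster 17 were control cells labelled cKO. Hmox1 was 81.2, 344 and 59.0 CPM in clusters 3, 10 and 17, Fth1 25124, 17327 and 11073 CPM, and Slc11a1 99.7, 77.5 and 44.2 CPM. In each of the 4 groups Hmox1 was higher in cluster 10 than in cluster 3. For Fth1 the order depended on the treatment, with cluster 3 above cluster 10 in control tumors (26443 against 16733 and 19148 against 12759 CPM) and below it after IR (30015.5 against 34952 and 26442 against 28423 CPM). Slc11a1 was higher in cluster 3 in 3 of the 4 groups, and in control tumors labelled cKO it was 75.4 against 76.2 CPM.

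Read by cluster, Hmox1 was higher after IR in both of the larger clusters. It was 56.7 and 68.0 CPM in control and 99.6 and 106 CPM after IR in cluster 3 (0.81 and 0.63), and 335 and 261 CPM and then 435 and 619.8 CPM in cluster 10 (0.37, 0.10 to 0.64, and 1.25, 1.10 to 1.40). Under each label both ratios lay above the 0.13 and 0.46 of the summed class. Fth1 in cluster 10 was 16733 and 12759 CPM in control and 34952 and 28423 CPM after IR (1.06 and 1.16). There Fth1 was called under both labels and Hmox1 labelled cKO, where 7.59% (labelled WT) and 10.8% (labelled cKO) of all genes were called. Tfrc in cluster 10 gave 2 against 40 and 3 against 77 UMIs, too few to be counted. Its cluster 3 ratios were −0.35 (−0.84 to 0.11) labelled WT and −0.37 (−0.76 to 0.02) labelled cKO, and both intervals reached 0. In cluster 3, where 1.94% and 4.5% of all genes were called, no member was. Prdx1 was 0.97 and 0.72 higher after IR in cluster 3 and 0.28 and 0.11 higher in cluster 10.

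Of the iron list, Hfe, the binding partner of the transferrin receptor, was called lower after IR in macrophages under both labels (10.4 against 22.1 CPM and 13.9 against 38.5 CPM) and Hp higher labelled cKO (36.7 against 15.5 CPM, 1.24). Of the antioxidant list, none was called labelled WT, and Prdx6 (1.07) and Gsr (1.01) were called higher and Prdx4 (−1.08) lower labelled cKO.

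**Figure D5:**
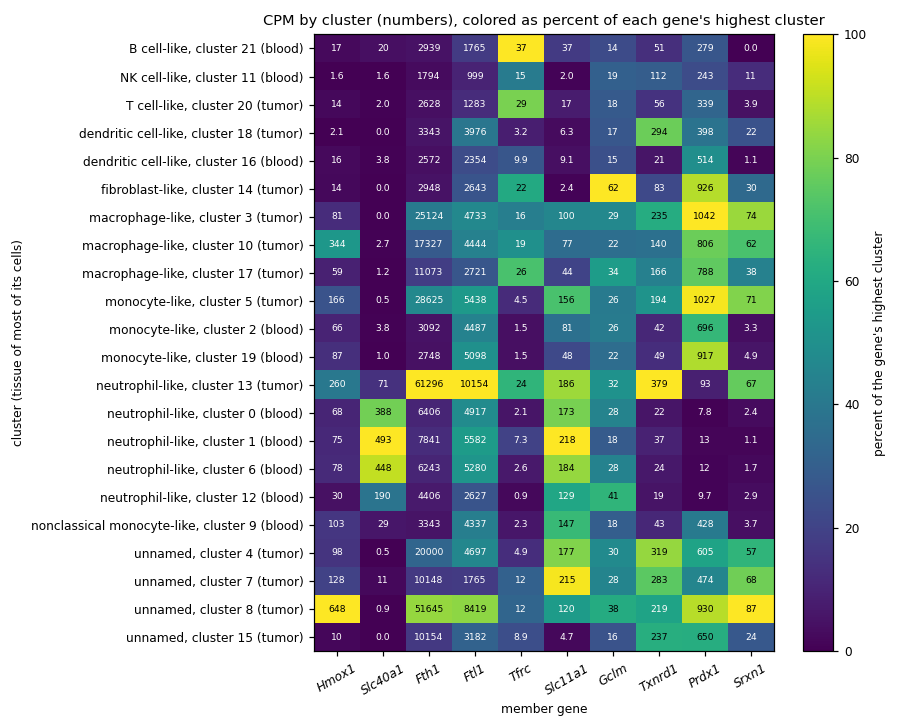
CPM of each member (columns, numbers in the cells) in the 22 clusters of at least 50 kept cells (rows, with the tissue of most of their cells), summed over all groups, colored as a percent of the gene's highest cluster. Hmox1 is 648 CPM in cluster 8 and 344 CPM in cluster 10 against 81.2 CPM in cluster 3, and the highest Slc40a1 levels lie in the blood neutrophil-like clusters 0 (388 CPM), 1 (493 CPM) and 6 (448 CPM).

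Of the 23 clusters, 4 bore no cell type name, and a pair of these tumor clusters stood out. Cluster 8 (1087 cells, with Hspa1a, Mmp12, Cxcl3 and Mmp13 among its leading genes) held the most Hmox1 of all clusters, 553 to 767 CPM over its 4 groups, with Fth1 at 44174 to 53233 CPM and Slc40a1 at 0 to 2.63 CPM. Its Hmox1 range lay above that of cluster 3 (56.7 to 106 CPM) and overlapped that of cluster 10 (261 to 619.8 CPM). Cluster 4 (2041 cells, with Adora2b, Nrg1, Havcr2 and Cxcl10 among its leading genes) held Txnrd1 at 285 to 360.4 CPM over 4 groups, a range that overlapped the 308 and 397 CPM of the tumor neutrophil cluster 13.

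Between cells labelled cKO and WT, no member was called in macrophages of control (2.01% of all genes called) or irradiated tumors (0.366%). Fth1 was 16118 CPM labelled cKO and 23832 CPM labelled WT in controls (−0.56, −0.57 to −0.56) and 26597 and 29889 CPM after IR (−0.17, −0.18 to −0.16). Hmox1 was 124 against 110.01 CPM and 171 against 120.2 CPM (0.17 and 0.51) and turned below 0 in some alternatives (down to −0.30 and −0.13). Among the other counted members the ratios lay between −0.26 and 0.24. Within cluster 3 (1.4% and 0.227% of genes called in control and IR) Fth1 was −0.47 and −0.18, and within cluster 10 (0.864% and 1.99%) −0.39 and −0.30, with no member called in either. Neither list had a called gene between the labels in macrophages. The macrophage markers summed to 11523 CPM labelled cKO against 8597 CPM labelled WT in controls and to 6336 against 4834 CPM after IR, and their part in these ratios was not tested.

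In blood, no member was called in neutrophil-like or monocyte-like cells, in any of 8 comparisons. For neutrophils the share of all genes called was 0.731% (IR against control, labelled WT), 2.39% (the same, labelled cKO), 3.8% (cKO against WT, control) and 0.468% (the same, IR). Slc40a1 was higher after IR under both labels, at 428 against 351 CPM (0.29, 0.22 to 0.36) and 523 against 352 CPM (0.57, 0.50 to 0.64). Fth1 was lower after IR, 6391 against 8180.1 CPM and 5470.2 against 6404 CPM (−0.36 and −0.23). Txnrd1 was lower in cells labelled cKO, 20.5 against 33.3 CPM in controls and 18.7 against 32.4 CPM after IR (−0.69, −0.99 to −0.41, and −0.79, −1.10 to −0.49), the widest difference of a counted member between labels in blood.

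A single neutrophil-like cluster of the blood, cluster 12 (with Ngp, Camp, Itgb2l and Lcn2 among its leading genes, of which Ngp, Camp and Lcn2 are known from immature neutrophils), drew 567 of its 744 cells from control blood labelled cKO. Without it Txnrd1 was −0.61 and −0.76 and Slc40a1 after IR 0.29 and 0.32. Between labels in control blood the ratio of Hmox1 went from −0.38 to −0.10, that of Ftl1 from −0.39 to −0.17 and that of Slc40a1 from 0.00 to 0.27, so those of Hmox1 and Ftl1 shrank and that of Slc40a1 grew. The iron genes Ltf and Lcn2 were called higher in control neutrophils labelled cKO (Ltf 670.4 against 104 CPM, Lcn2 4199.7 against 1387 CPM), and both were called lower there after IR (92.5 and 1658 CPM). Ltf was also called higher after IR labelled WT (219 against 104 CPM) and lower in IR cells labelled cKO than labelled WT (92.5 against 219 CPM). Steap4, a ferrireductase, was called higher after IR labelled cKO (145 against 58.3 CPM). No antioxidant gene was called in blood neutrophils. The erythroid markers summed to 1111 and 1412 CPM in control and 23.8 and 393 CPM in IR blood neutrophils, and their part in these ratios was not tested.

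For monocyte-like cells of the blood the share of all genes called was 0.765% and 0.949% (IR against control, labelled WT and cKO) and 0.646% and 0.331% (cKO against WT, control and IR). Slc40a1, Tfrc and Srxn1 were too few to be counted. Prdx1 was 753 against 624 CPM and 776 against 637 CPM after IR (0.27 and 0.28), and Fth1 2886 against 3477 CPM and 2874 against 3149.8 CPM (−0.27 and −0.13). Under both labels Prdx1 was thus higher and Fth1 lower after IR, by less than the call. Hmox1 was 0.24 and 0.30 higher in cells labelled cKO (down to −0.13 and −0.01 over the alternatives), and Gclm 0.52 (0.23 to 0.82) and 0.07 (−0.19 to 0.32). Trf, transferrin, was called lower after IR labelled cKO (72.8 against 146 CPM) and Lcn2 higher in cells labelled cKO (70.4 against 23.1 CPM and 82.2 against 41.0 CPM).

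Scaling moved the split of all calls by over 10 percentage points in 2 of the 8 blood comparisons. With TMM factors the share of higher calls went from 41.96% to 22.8% for IR neutrophils labelled cKO (all ratios moving by −0.14) and from 51.9% to 64.9% for control neutrophils labelled cKO against WT (0.11). Apart from these and from macrophages against neutrophils, TMM moved all ratios by over 0.1 in comparisons of tumor with blood, by −0.14 (control) and 0.11 (IR) over all cells labelled cKO and by 0.33 and 0.19 between the neutrophils.

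Likeness between genes was measured as Pearson's r of log2 CPM with 10 added over 34 sums of 1 class in 1 group, against 11278 genes. The nearest genes to Slc40a1 were Lrg1 (r = 0.984), Gm16556 and Nlrp12 (0.980), and the nearest to Prdx1 were Psma5 (0.967), Akr1a1 and Psmb4. Fth1 came closest to Cd14 (0.977), Clec4n and Thbs1, Hmox1 to Gpr35 (0.940), Prdx5 and Plaur, and Slc11a1 to Pilra (0.966). Srxn1 came closest to Ifrd1 (0.938), Spp1 and Inhba, Txnrd1 to Eea1 (0.884), and Ftl1 to Lamp2 (0.921) and Tnfaip2, with its near copy Ftl1-ps1 at 0.905. Tfrc (Mthfd1, 0.829) and Gclm (Nqo1, 0.764) had weaker neighbours. Within the list, Hmox1 with Slc11a1 (0.905), Hmox1 with Ftl1 (0.887) and Txnrd1 with Srxn1 (0.884) were the closest pairs. These are descriptions over sums that share pools and libraries.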

How the data were processed

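The authors deposited 4 matrices of raw UMI counts (32285 genes and 2 hashtags) made with Cell Ranger on mm10. The version is 4 in the file headers and 6.0.1 in the processing notes, and GENCODE vM23 was their annotation. From these counts, barcodes were kept by a UMI threshold (99th percentile of the top 8000, divided by 10) plus an ambient test (at least 500 UMIs, ranks 45000 to 90000 as free RNA, 10000 simulations, Benjamini-Hochberg level 0.01), at least 200 genes and at most 25% mitochondrial UMIs. Genotype needed 20 hashtag UMIs, with WT where B0301 was at least B0302 and cKO where B0302 was at least 4 times B0301. Since Scrublet's own threshold marked almost no barcode, the 6% with the highest scores were removed as doublets. Cells were clustered with Seurat 5.3.0 (2000 variable genes, 40 principal components, resolution 0.8) without the members and pathway genes, and a cluster was named where at least 3 markers of a class were in at least 25% of its cells and at least 2 times higher than in the rest. Of 23 clusters, 19 were named. The clusters move with the numerical kernel of the linear algebra library, so 1 kernel was set throughout and another was tried.

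UMIs were summed per group and class of at least 50 cells. With 1 pool per group, no test was run. Poisson, exact binomial and exact conditional intervals cover counting error only, and UMIs of 1 droplet library cannot show variation between mice. edgeR 4.0.16 served for TMM factors in an alternative. Python 3.11.15, scipy 1.17.1, scanpy 1.11.5 and R 4.3.3 were used, and the interval script was tested on simulated counts. The members, the 2 pathway lists and the markers were chosen with earlier results of these data known. Named were all members, per comparison the 3 highest and 3 lowest called genes of each list, and for each member its 3 nearest genes by r. Other settings of barcode, hashtag, doublet, mitochondrial, clustering, scaling and UMI limits were tried. Sequences came from GENCODE vM21 transcripts and RefSeq promoter windows. Proteins and the promoters of Hmox1 and Slc40a1 were not analysed here.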

Additional observations from a re-analysis of the deposited data

Results flagged for a closer look

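A pair of ratios under the same contrast lay on opposite sides of 0, with counting intervals that did not reach 0, in 8 cases, and in none of them was the difference tested, since each group was 1 pool. In blood neutrophil-like cells Hmox1 was lower after IR labelled WT (−0.255) and higher labelled cKO (0.293), the latter falling to 0.026 without cluster 12, led by Ngp and Camp. In the same cells Ftl1 was lower labelled cKO than labelled WT in controls (−0.390) and higher after IR (0.0205). In macrophage-like cluster 3, Prdx1 was higher labelled cKO than labelled WT in control tumors (0.110) and lower in irradiated tumors (−0.137). In macrophage-like cluster 10, Hmox1 was lower labelled cKO than labelled WT in control tumors (−0.36) and higher in irradiated tumors (0.511). Gclm was higher in macrophages than in neutrophils of irradiated tumors labelled WT (1.561) and lower labelled cKO (−0.871), and between tumor and blood neutrophils it was lower labelled WT (−1.013) and higher labelled cKO (1.065), both resting on 8 and 28 UMIs in the tumor neutrophils. Over all cells, Ftl1 in control tumors against blood was higher labelled WT (0.0296) and lower labelled cKO (−0.305), and labelled cKO it was higher after IR (0.132).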

How the results depend on the processing

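Of 2401 recomputed ratios, 2345 stayed on the same side of the limit, 29 fell short of it, 26 passed it and 1 turned, and 39 of 46 called ratios stayed called in every alternative run. Gclm in tumor against blood neutrophils labelled cKO turned to −0.123 with the UMI threshold alone. Of 314 recomputed counts of called members 297 stayed within 1.5 times and 17 did not. For macrophages against neutrophils the 3 called labelled WT became 6 with TMM factors and 5 with a minimum of 20 UMIs, and the 3 labelled cKO became 8 with TMM factors, 5 with UMIs read from the other tumor matrix, and 1 with 10% mitochondrial UMIs or with wider phagocyte clusters. For IR macrophages labelled cKO, 1 in place of 0 was called (Tfrc) with the gate (−1.13) and at resolution 1.2 (−1.14), as was 1 with a minimum of 20 UMIs between labels in control blood monocytes. The 7 called for tumor against blood neutrophils labelled cKO became 4 with the threshold alone. Members counted as over 2 times apart between macrophage-like clusters went from 3 to 1 with the threshold alone, a minimum of 500 UMIs, no Scrublet removal, resolution 0.4 or clustering with the members, and to 5 with 10% mitochondrial UMIs or resolution 1.2. The share of all genes so far apart was not counted in any setting, so nothing particular to the members is read from these counts. For these changes the cause was not tested, apart from the minimum of 20 UMIs, which counts more genes.

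With another numerical kernel, 3690 cells were macrophage-like in place of 3638, 3533 of them the same. Macrophages against neutrophils labelled cKO then gave −0.76 for Hmox1 and −0.50 for Gclm (−0.96 and −0.87 as reported), and 6 in place of 7 members were called for tumor against blood neutrophils labelled cKO.

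Over all genes, the number called moved by more than 1.5 times in 36 cases over 16 of 20 comparisons, 16 of them with the minimum of 20 UMIs: from 3549 to 6248 and 4218 to 6521 (macrophages against neutrophils), 228 to 654 and 682 to 1289 (IR macrophages), 172 to 478 and 27 to 216 (macrophage labels), 46 to 239, 143 to 450, 233 to 587 and 29 to 194 (blood neutrophils), 63 to 260, 78 to 286, 51 to 216 and 28 to 152 (blood monocytes), and 2976 to 4714 and 2637 to 4346 (tumor against blood neutrophils). Other settings gave 2359 for macrophages against neutrophils labelled WT, 151 to 540 for IR macrophages labelled WT and 1133 and 1176 labelled cKO, 106 to 296 in controls and 11 to 17 after IR for macrophage labels, and 51, 27, 80 and 31 for monocytes. Without the Ngp and Camp cluster, 143 became 48 and 233 became 87. That setting, the wider phagocyte clusters, neutrophils without a C1q UMI, leaving out barcodes with 20 hashtag UMIs in both tumor matrices, and the other kernel were chosen after seeing the data. No paired analysis was possible because each group was 1 pool. Leaving out a replicate was not possible for the same reason.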
